A study of Sus scrofa with 6 samples.

Results

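The 78 genes described here code for enzymes and small proteins that remove superoxide and peroxides, keep thiols reduced, make and use glutathione, oxidise or reduce aldehydes and quinones, bind metals or oxygenate fatty acids. They were chosen by symbol, from the genes that the annotation of the array pairs with a probe set of a single symbol. The symbols taken were those of the superoxide dismutase, catalase, glutathione peroxidase, peroxiredoxin, thioredoxin, glutaredoxin, glutathione synthesis, glutathione transferase, quinone reductase, haem oxygenase, metallothionein, selenoprotein, aldehyde dehydrogenase, aldo-keto reductase (families 1 and 7) and lipoxygenase families. Selenoproteins whose symbols do not begin with SELEN or fall in another of these families, such as MSRB1 and DIO2, were not taken. The chosen genes are 78 of 6765 genes with such a probe set and are read by 112 probe sets. The probe set with the highest mean log2 signal over all arrays stands for each gene. Total RNA of the cerebral cortex of pig embryos was hybridised to the Affymetrix Pig Genome Array, 1 array per embryo, with 3 embryos at E60, when the cortex is smooth, and 3 embryos at E80, when its first folds are present. No treatment or genetic change is named for either day. No source used here gives the breed, the sex or the litter of each embryo. The design text of the series mentions litter mates, so embryos of a day may share a litter. Litter and day cannot be told apart, and the p-values measure the spread between these arrays. Values are MAS5 signals, which read the brightness of a set of short probes on a linear scale, and differences are log2 of E80 minus log2 of E60, so that a positive difference is higher at E80. Signals of different genes cannot be set against each other, since each set of probes binds with its own strength.

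Superoxide, a by-product of respiration, is turned into hydrogen peroxide by superoxide dismutases, and the peroxide is removed by catalase, by glutathione peroxidases and by peroxiredoxins. Glutathione peroxidases draw electrons from glutathione and most peroxiredoxins draw them from thioredoxin, and both carriers are reduced again with NADPH. The brain uses much oxygen and is rich in polyunsaturated lipids, and much of its glutathione metabolism is found in astrocytes. Transferases couple glutathione to foreign or oxidised compounds, aldehyde dehydrogenases and aldo-keto reductases clear reactive aldehydes, and lipoxygenases insert oxygen into arachidonic and related fatty acids.

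Between E60 and E80, 5 of the 78 genes rose and none fell in limma, at an adjusted p under 0.05 over all 23999 probe sets tested. The metallothionein MT3, the lipoxygenase ALOX15, the leukotriene synthesis protein ALOX5AP, the peroxiredoxin PRDX5 and the microsomal glutathione transferase MGST3 rose. These 5 are 6.41% of the 78 genes. Over all probe sets 0.933% rose and 1.01% fell, and over the 6765 genes with 1 probe set each 1.49% rose and 1.05% fell. Among the 66 of the 78 genes whose probe set was in the brightest 66% of all probe sets, the 5 are 7.58%, beside 1.81% of all 5533 such genes, of which 1.25% fell. At an unadjusted p under 0.05, 17 of the 78 genes were higher and 2 were lower at E80, beside 10.1% and 10.6% of the 6765 genes. The median log2 difference was 0.13 over the 78 genes and -0.00046 over the 6765 genes, and 0.12 and -0.0035 where only genes of the brightest 66% were taken. Setting each array to a common median raised every difference by the same amount, so the gap between the 78 and the 6765 genes stayed as it was. The median of the 78 genes became 0.25, and that of all probe sets went from -0.05 to 0.06. On the deposited signals the difference was above 0 in 51 of the 78 genes and in 49.9% of the 6765 genes. It was above 0 in 49 of the 78 after quantile normalization and in 56 after median centring. The count over all 23999 probe sets moved as well, from 10641 as deposited to 11821 after quantile normalization and 13600 after median centring. On the signals as deposited, 18 of the 78 genes had all E80 arrays above all E60 arrays (23.1%, beside 12.8% of the 6765 genes) and 6 had all of them below (7.69%, beside 14.7%). The choice of genes was made with earlier results of these arrays known, so these shares describe the genes and are not a test of them. Fewer cells of a type and less RNA per cell cannot be told apart in such tissue samples.

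The calls rest on few arrays. Without replicate 1 or 2 of E60, or without replicate 1 of E80, none of the 78 genes passed and 1 of all 23999 probe sets passed, and without the intensity trend of the variance model none of either passed, although each of the 5 kept a positive difference and an unadjusted p under 0.05 in all 13 alternatives. Without replicate 2 of E80 the genes that passed were MT3 and GPX1 as higher and ALDH1L2 as lower, and without replicate 3 of E80 MT3 was the 1 that passed. Without replicate 3 of E60 SELENOW passed in place of MGST3.

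**Figure D1:**
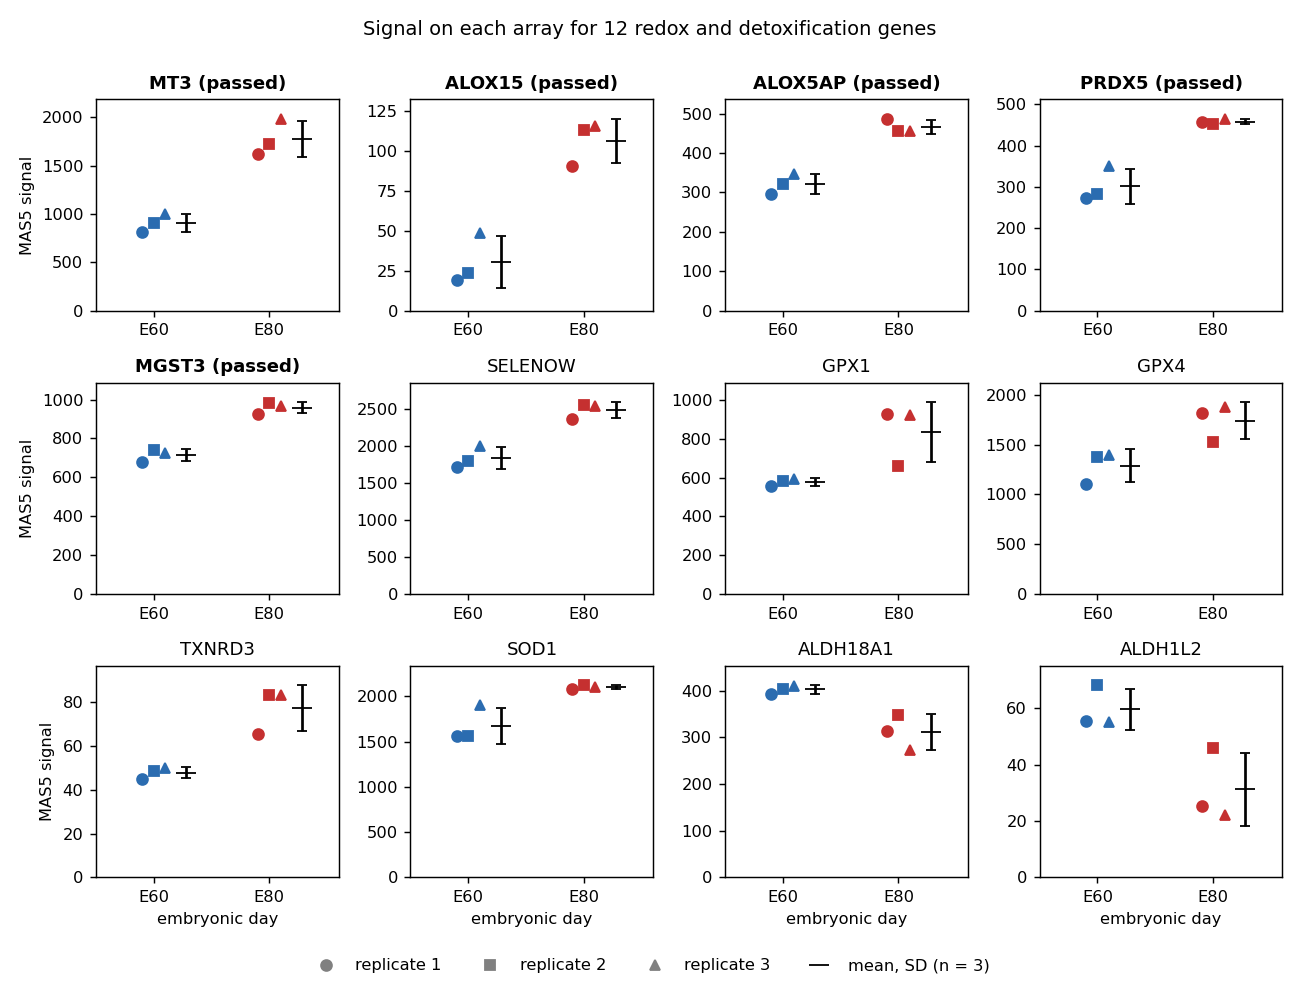
MAS5 signal (vertical axes, linear, from 0) on each array at E60 (blue) and E80 (red) for 12 redox and detoxification genes. Circles, squares and triangles are replicates 1, 2 and 3, which are not paired between the days, and bars are means with SD (n = 3). In each of these genes the days did not overlap, with E80 above E60 in all but ALDH18A1 and ALDH1L2, and only the 5 genes marked as passed rose in the test.

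Some marker signals of other cell types differed between the days or on single arrays, and their part in the results below was not tested. The sums below are carried mostly by the brightest genes of a list. They serve to compare arrays and need not hold for every marker. Of 10 listed astrocyte markers 8 were measured, with a summed signal of 4475 to 4799.6 at E60 and 5509.5 to 6889 at E80, and GFAP and ALDOC rose. Of 10 neuronal markers 6 were measured, at 12309 to 13412 and 14896 to 15493, and SNAP25 rose. Of 10 markers of dividing cells 6 were measured, at 1021 to 1112 and 559 to 691, and TOP2A, CCNB1 and PCNA fell. The 6 measured markers of microglia and macrophages (of 10) summed to 168 to 265 and 221 to 636, with the highest sum on replicate 3 of E80, and none passed. The 5 measured red blood cell markers (of 12) summed to 1139 to 1248 and 1036 to 1268. The 5 measured choroid plexus markers (of 10) summed to 90.3 to 176 at E60 and to 112, 197 and 5466 on replicates 1, 2 and 3 of E80, so that replicate 3 of E80 stands apart. On that array TTR alone read 4475, and the astrocyte and oligodendrocyte sums were also the highest of all arrays. The oligodendrocyte markers (8 of 10) summed to 786 to 982 and 999 to 1752, those of fibroblasts and meninges (8 of 10) to 1672 to 2216 and 879 to 1810.3, and those of endothelium and pericytes (9 of 10) to 1828 to 1859 and 1510.1 to 1759.7. Of 10 listed genes of the neocortex, only NFIB was measured, so the region was not checked. All 6 measured neuronal markers were in the brightest 66% of probe sets, but they are general markers of neurons and do not tell the region.

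MT3, the metallothionein of the brain, which binds zinc and copper and is made by neurons and astrocytes, had the smallest p of the 78 genes. Its signal was 813, 904 and 1001 at E60 and 1616, 1723 and 1985 at E80. The lowest E80 array lay well above the highest E60 array, and the mean went from 906 ± 93.9 (SD, n = 3) to 1774 ± 190.3 (SD, n = 3), a 1.96-fold rise. The log2 difference was 0.97 (standard error 0.11, adjusted p = 0.0159), with a 95% interval of 0.71 to 1.23. The summed astrocyte markers and the summed neuronal markers were also higher on each E80 array than on each E60 array. The part of either cell type in the rise of MT3 was not tested. The other metallothionein, MT1A, was read by a dim probe set of the kind that can bind several related transcripts. Metallothionein transcripts are much alike, so the signals of both genes may include related copies. Its signal was 6.54, 1.72 and 11.8 at E60 and 10.7, 10.7 and 34.6 at E80, and the days overlapped. MT1A had a log2 difference of 1.64 (standard error 0.78, adjusted p = 0.318), and replicate 3 of E80 was the highest array.

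ALOX15 adds oxygen to arachidonic and linoleic acid, also within membrane lipids. Its signal was 18.9, 23.7 and 48.8 at E60 and 90.4, 113 and 116 at E80. Replicate 3 of E60 was the highest of its day but still below every E80 array. The rise was 3.78-fold, and its 95% interval as a log2 difference was 1.14 to 2.69 (adjusted p = 0.0361). It was the only one of the 78 genes to be at least 3-fold apart with no overlap between the days, a rule that 0.547% of the 6765 genes met as higher and 0.177% as lower at E80. With 32 added to each signal, which damps the changes of dim probe sets, none of the 78 genes met it. The study named ALOX15 from these same arrays, so its direction here is not independent of that choice.

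ALOX5AP, the membrane protein that hands arachidonic acid to the leukotriene-forming lipoxygenase and is known from microglia and other leukocytes, rose by less. Its signal was 295, 321 and 347 at E60 and 487, 457 and 456 at E80. The E80 arrays lay close together and apart from E60, and the log2 difference was 0.54 (standard error 0.10, adjusted p = 0.0378), with a 95% interval of 0.32 to 0.77. No probe set of ALOX5 or ALOX12 with a single symbol was analysed here, so the lipoxygenase group has 2 genes. Of the prostaglandin enzymes around them, PTGS1 had a dim signal of 9.77 to 13.2 at E60 and 17.97 to 25.1 at E80 and a log2 difference of 0.83 (standard error 0.31, adjusted p = 0.215), and PTGS2 one of 0.47 (standard error 0.57, adjusted p = 0.722).

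PRDX5, a peroxiredoxin of mitochondria, peroxisomes and cytosol that also reduces peroxynitrite, was the 1 of 6 peroxiredoxins that rose. Its signal was 273, 281 and 351 at E60 and 457, 451 and 465 at E80. Replicate 3 of E60 was above the other arrays of its day, whereas the 3 E80 arrays differed little. The log2 difference was 0.61 (standard error 0.12, adjusted p = 0.0426), with a 95% interval of 0.35 to 0.88. The other 5 did not pass, with log2 differences of 0.06 to 0.27. PRDX6, which uses glutathione and also acts on phospholipids, had signals of 360.4, 366 and 338 at E60 and 391, 481 and 412 at E80, again with no overlap, and a log2 difference of 0.27 (standard error 0.11, adjusted p = 0.238). The cytosolic PRDX1 had a log2 difference of 0.21 (standard error 0.12, adjusted p = 0.421), with replicate 1 of E80, at 498, inside the range of E60. PRDX2, the peroxiredoxin of neurons and red blood cells, had signals of 1699 to 1961 at E60 and 1804 to 1949 at E80 and a 95% interval of the log2 difference of -0.14 to 0.26. Its difference was 0.06 as deposited and -0.07 after quantile normalization, so it has no settled sign. The mitochondrial PRDX3 (0.10, adjusted p = 0.652) and the PRDX4 of the endoplasmic reticulum (0.13, adjusted p = 0.61) lay between these. A second, dim probe set of PRDX4 differed in sign (-0.65). Whether PRDX5 differed from the other peroxiredoxins was not tested.

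None of the 3 superoxide dismutases or catalase passed. SOD1, the copper and zinc enzyme of the cytosol, had signals of 1558, 1561 and 1906 at E60 and 2079, 2121 and 2098 at E80. The E80 arrays were nearly equal and all above E60, and the log2 difference was 0.33 (standard error 0.10, adjusted p = 0.128), with a 95% interval of 0.11 to 0.56. SOD2, the manganese enzyme of mitochondria, also had no overlap, at 348 to 398 at E60 and 409 to 455 at E80, with a log2 difference of 0.20 (standard error 0.10, adjusted p = 0.31). The secreted SOD3 was dim, at 4.43 to 12.4 at E60 and 4.33 to 5.86 at E80. Catalase (CAT), the peroxisomal enzyme that splits hydrogen peroxide, had signals of 519, 571 and 563 at E60 and 456, 520.1 and 543 at E80, and its log2 difference of -0.12 had a 95% interval of -0.35 to 0.10.

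Of 7 glutathione peroxidases none passed, and the smallest p belonged to GPX1 and GPX4, both selenoenzymes. GPX1, the cytosolic and mitochondrial form, had signals of 557, 582 and 594 at E60 and 929.8, 659.8 and 922 at E80. Replicates 1 and 3 of E80 were well above E60 and replicate 2 was closer to it. The log2 difference was 0.52 (standard error 0.14, adjusted p = 0.101), with a 95% interval of 0.20 to 0.84, and GPX1 passed when replicate 2 of E80 was left out. GPX4, which reduces lipid peroxides within membranes, had signals of 1102, 1373 and 1395 at E60 and 1815, 1529 and 1882 at E80, with replicate 2 of E80 again the lowest of its day. Its log2 difference was 0.44 (standard error 0.12, adjusted p = 0.115), and its second, dim probe set had one of 0.58. GPX2 (0.26) and GPX7 (-0.35) overlapped between the days. GPX3, GPX5 and GPX6 were among the 34% of probe sets with the lowest mean log2 signal, and the 2 probe sets of GPX5 differed in sign (-0.58 and 0.69).

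Thioredoxin (TXN), the small dithiol protein that reduces peroxiredoxins and ribonucleotide reductase, had signals of 1474, 1579 and 1655 at E60 and 1745, 1992 and 1897 at E80. All E80 arrays lay above E60, and the log2 difference was 0.26 (standard error 0.09, adjusted p = 0.175), while a further and less bright probe set gave 0.10. TXNRD3, a thioredoxin reductase with an added glutaredoxin domain, had the larger difference. Its signal was 44.9, 48.5 and 49.8 at E60 and 65.3, 83.3 and 83.5 at E80, with a log2 difference of 0.69 (standard error 0.18, adjusted p = 0.0904) and a 95% interval of 0.29 to 1.09. Its second probe set, which is dim, read 7.56, 10.6 and 13.2 at E60 and 29.8, 37.8 and 17.5 at E80, a log2 difference of 1.41 (standard error 0.39, adjusted p = 0.111). The days were apart on both probe sets, and neither passed. The cytosolic reductase TXNRD1, at 0.11 (adjusted p = 0.673), and the mitochondrial thioredoxin TXN2, at -0.13 (adjusted p = 0.568), did not pass either.

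The other 7 proteins with a thioredoxin fold, or that bind thioredoxin, had log2 differences of -0.25 to 0.30, and none passed. TXNDC17, a thioredoxin-related protein of the cytosol, had signals of 348, 359 and 342 at E60 and 416, 439 and 434 at E80. These did not overlap, and the log2 difference was 0.30 (standard error 0.08, adjusted p = 0.116). TXNL1, which is bound to the proteasome, was apart by less, at 666 to 697 at E60 and 739 to 772 at E80, with a log2 difference of 0.14 (standard error 0.08, adjusted p = 0.385). TXNL4A, a part of the spliceosome despite its name, had one of 0.16 (standard error 0.11, adjusted p = 0.502). TXNIP, which binds thioredoxin and limits glucose uptake, varied within E80, at 521, 553 and 453 at E60 and 309, 469.9 and 532 at E80. The 4 glutaredoxins, which use glutathione to reduce mixed disulfides or to carry iron-sulfur clusters, had log2 differences of 0.048 to 0.31, all above 0, with GLRX3 at -0.03 after quantile normalization. GLRX had a log2 difference of 0.31 (standard error 0.20, adjusted p = 0.45) on the probe set that stands for it and of 0.55 (standard error 0.19, adjusted p = 0.185) on the other, where the signal was 132 to 152 at E60 and 171 to 287 at E80. For GLRX3 the 95% interval was -0.16 to 0.26, for GLRX2 -0.13 to 0.40 and for GLRX5 -0.17 to 0.33.

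The enzymes that make and recycle glutathione did not pass, and 3 of the 4 had a lower mean log2 signal at E80. GSS, glutathione synthetase, had signals of 124, 107 and 94.02 at E60 and 68.2, 44.8 and 123 at E80. Replicate 2 of E80 was far below E60 and replicate 3 within its range, and the log2 difference was -0.58 (standard error 0.33, adjusted p = 0.41). Its other probe set gave -0.32 (standard error 0.14, adjusted p = 0.3) with no overlap between the days (85.2 to 86.8 at E60 and 62.8 to 74.1 at E80). Glutathione reductase (GSR) had a log2 difference of -0.19 (standard error 0.14, adjusted p = 0.529). Its 2 other probe sets gave -0.38 and, on a dim one, -1.69, both with all E80 arrays below E60. GCLC, the catalytic part of the ligase that sets the rate of synthesis, gave 0.14, 0.19 and -0.058 on its 3 probe sets of ordinary brightness, and -1.13 and -1.14 on 2 dim ones. The modifier GCLM was at 37.8 to 39.7 at E60 and 26.9 to 37.4 at E80, lower on every E80 array, with a log2 difference of -0.26 (standard error 0.22, adjusted p = 0.592).

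MGST3, a membrane-bound transferase that also acts as a peroxidase and makes leukotriene C4, was the 1 of 8 glutathione transferases that rose. Its signal was 679.8, 741 and 726 at E60 and 927, 983 and 966 at E80. Both days were tight and apart, and the log2 difference was 0.42 (standard error 0.08, adjusted p = 0.0444), with a 95% interval of 0.24 to 0.61. After quantile normalization the difference was 0.34 and did not pass (adjusted p = 0.0630), and no setting that left out an array kept the call. MGST1, its relative in the endoplasmic reticulum and the outer mitochondrial membrane, had signals of 305, 280.2 and 258 at E60 and 363, 329 and 504 at E80. Replicate 3 of E80, the array with the highest choroid plexus, astrocyte, oligodendrocyte and microglia sums, was the highest. The log2 difference was 0.48 (standard error 0.16, adjusted p = 0.17). The mitochondrial and peroxisomal GSTK1 lay lower on each E80 array, at 50.4 to 56.9 at E60 and 31.96 to 46.3 at E80, with a log2 difference of -0.44 (standard error 0.21, adjusted p = 0.316). GSTA4, which clears the lipid aldehyde hydroxynonenal, had signals of 1325 to 1593 at E60 and 1305 to 1573 at E80 and a 95% interval of -0.26 to 0.24, with a sign that turned under median centring (0.10). GSTM3 (-0.21), GSTO1 (-0.025) and GSTZ1 (0.026) overlapped between the days, and so did the dim GSTA1. A second, dim probe set of GSTZ1 read 6.09, 11.7 and 5.51 at E60 and 20.2, 19.6 and 25.7 at E80, apart between the days, with a log2 difference of 1.57 (standard error 0.40, adjusted p = 0.0885).

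Of the quinone reductases and haem oxygenases none passed. NQO2 had signals of 434, 449 and 392 at E60 and 518, 487 and 497 at E80, with all E80 arrays above E60 and a log2 difference of 0.24 (standard error 0.09, adjusted p = 0.221). NQO1, a standard target of the transcription factor NRF2, had signals of 65.3, 63.6 and 43.99 at E60 and 77.2, 64.9 and 78.9 at E80, which overlapped, and a log2 difference of 0.37 (standard error 0.21, adjusted p = 0.391). HMOX2, the constitutive haem oxygenase of the brain, had a log2 difference of 0.39 (standard error 0.16, adjusted p = 0.249), with replicate 3 of E60, at 362, inside the range of E80. The inducible HMOX1 varied from 24.3 to 51.3 at E60 and 14.8 to 48.8 at E80, a log2 difference of -0.29 (standard error 0.46, adjusted p = 0.79).

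SELENOW, a small selenoprotein of brain and muscle that binds glutathione, was the closest of the 78 genes to the threshold without passing. Its signal was 1724, 1793 and 2007 at E60 and 2360.3, 2560.5 and 2539 at E80. The days were apart, and the log2 difference was 0.44 (standard error 0.09, adjusted p = 0.0516), with a 95% interval of 0.23 to 0.64. It passed after median centring, among the brightest 66% of probe sets, with the mean of all probe sets of a gene, and without replicate 3 of E60. MGST3, just inside the threshold, had an adjusted p of 0.0444. SELENOH, a DNA-binding selenoprotein of the nucleolus, was lower at E80 on both of its probe sets. They read 383 to 447 at E60 and 311 to 364 at E80, a log2 difference of -0.25 (standard error 0.11, adjusted p = 0.28), and 50.05 to 64.2 at E60 and 37.2 to 41.5 at E80, a log2 difference of -0.51 (standard error 0.19, adjusted p = 0.208). SELENOS, of the endoplasmic reticulum, had a log2 difference of 0.24 (standard error 0.11, adjusted p = 0.292). SELENOP, the secreted protein that supplies selenium, had signals of 507, 504 and 469 at E60 and 225, 513 and 423 at E80, with replicate 1 of E80 far below all other arrays. The 10 genes of this group had a median log2 difference of -0.06, which turned to 0.06 after median centring, and none passed. Of the 78 genes, 16 were listed as coding for proteins with selenocysteine, a set drawn up after the values were seen. None of them passed, and 10 differences were above 0 and 6 below.

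**Figure D2:**
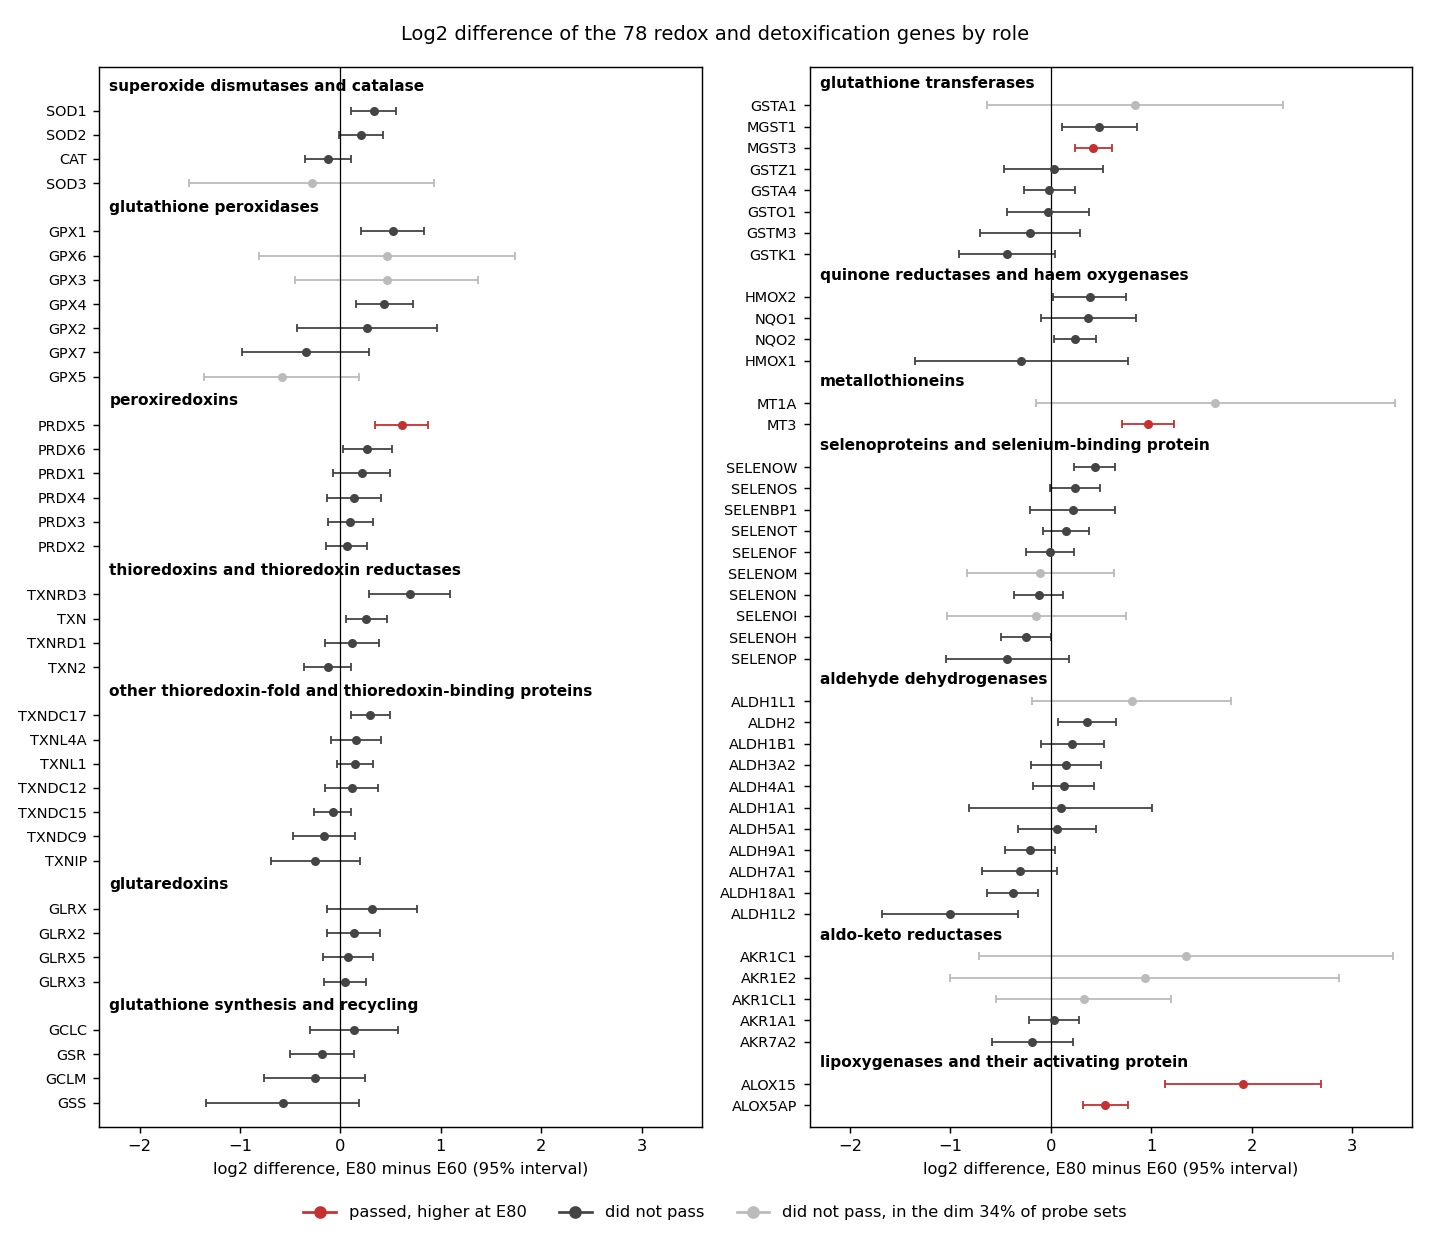
Log2 difference of E80 minus E60 (horizontal axes) with its 95% interval for all 78 genes, grouped by role and ordered by size within a role. The 5 genes in red rose, dark points did not pass, and pale points did not pass and belong to the 34% of probe sets with the lowest mean log2 signal (12 of the 78 genes), where intervals are wide. All 6 peroxiredoxins lie to the right of 0 (PRDX2 turned after quantile normalization, and a dim second probe set of PRDX4, not drawn here, had the opposite sign), and 3 of the 4 genes of glutathione synthesis and recycling lie to the left.

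None of the 11 aldehyde dehydrogenases passed, and their differences lay on both sides of 0. ALDH1L2, the mitochondrial formyltetrahydrofolate dehydrogenase of the folate cycle, had signals of 55.6, 68.2 and 55.3 at E60 and 25.4, 46.02 and 22.3 at E80. Replicates 1 and 3 of E80 were far below E60 and replicate 2 was nearer, and the log2 difference was -1.004 (standard error 0.30, adjusted p = 0.128), with a 95% interval of -1.69 to -0.32. Without replicate 2 of E80 it passed as lower. ALDH18A1, which makes the precursor of proline, had signals of 394, 404 and 411 at E60 and 314, 348 and 273 at E80, a log2 difference of -0.38 (standard error 0.11, adjusted p = 0.125). The days were also apart for ALDH9A1, lower at E80 with a log2 difference of -0.21 (standard error 0.11, adjusted p = 0.36), and for ALDH2, the mitochondrial enzyme that clears acetaldehyde. ALDH2 had signals of 431, 406 and 336 at E60 and 521, 537 and 445 at E80 and a log2 difference of 0.36 (standard error 0.13, adjusted p = 0.181). ALDH1L1, the cytosolic folate enzyme that is used as an astrocyte marker, was dim and overlapped, at 22.02, 7.78 and 15.2 at E60 and 28.8, 17.8 and 26.9 at E80, with a log2 difference of 0.80 (standard error 0.43, adjusted p = 0.379), and its second probe set differed in sign (-0.62). ALDH1A1, which makes retinoic acid, read 37.1, 29.8 and 32.3 at E60 and 21.1, 31.6 and 65.6 at E80, highest on replicate 3 of E80, and its second probe set also differed in sign (-0.53). ALDH7A1, of lysine breakdown, gave -0.31 and -0.24 on its 2 probe sets. The remaining ALDH1B1, ALDH3A2, ALDH4A1 and ALDH5A1, the last of these an enzyme of GABA breakdown, had log2 differences of 0.061 to 0.21.

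None of the 5 aldo-keto reductases passed, and 3 of them (AKR1C1, AKR1E2 and AKR1CL1) were too dim for their differences to be read closely. AKR1C1, a steroid reductase, was at 2.12, 2.45 and 1.27 at E60 and 1.12, 10.2 and 9.41 at E80, and its 95% interval of the log2 difference was -0.72 to 3.41. AKR1A1, aldehyde reductase, had signals of 747 to 948 at E60 and 806 to 916 at E80 and a 95% interval of -0.22 to 0.28, with a sign that turned after quantile normalization (-0.04). AKR7A2, which reduces aflatoxin aldehyde and succinic semialdehyde, had a log2 difference of -0.18 (standard error 0.17, adjusted p = 0.632).

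**Figure D3:**
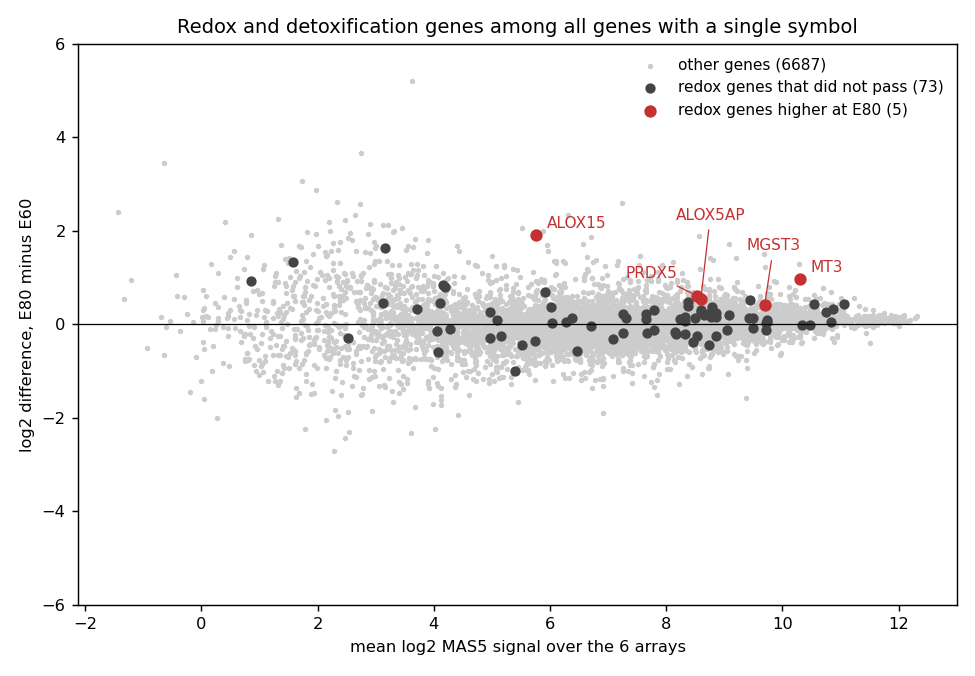
Log2 difference of E80 minus E60 (vertical axis) against the mean log2 signal over the 6 arrays (horizontal axis) for the 6765 genes with a single symbol, 1 probe set each. Grey points are other genes, dark points the 73 redox genes that did not pass and red points the 5 that rose. Of the red points ALOX15 lies highest, at a log2 difference of 1.92, and MT3 farthest to the right.

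For 24 of the 78 genes the array holds more than 1 probe set. In 14 of them every probe set had the same sign, and in 10 the signs were mixed, but none of the 34 further probe sets passed the test and 18 of these 34 were dim. Each of the 5 genes that rose is read by 1 probe set, so no second probe set bears on them.

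**Figure D4:**
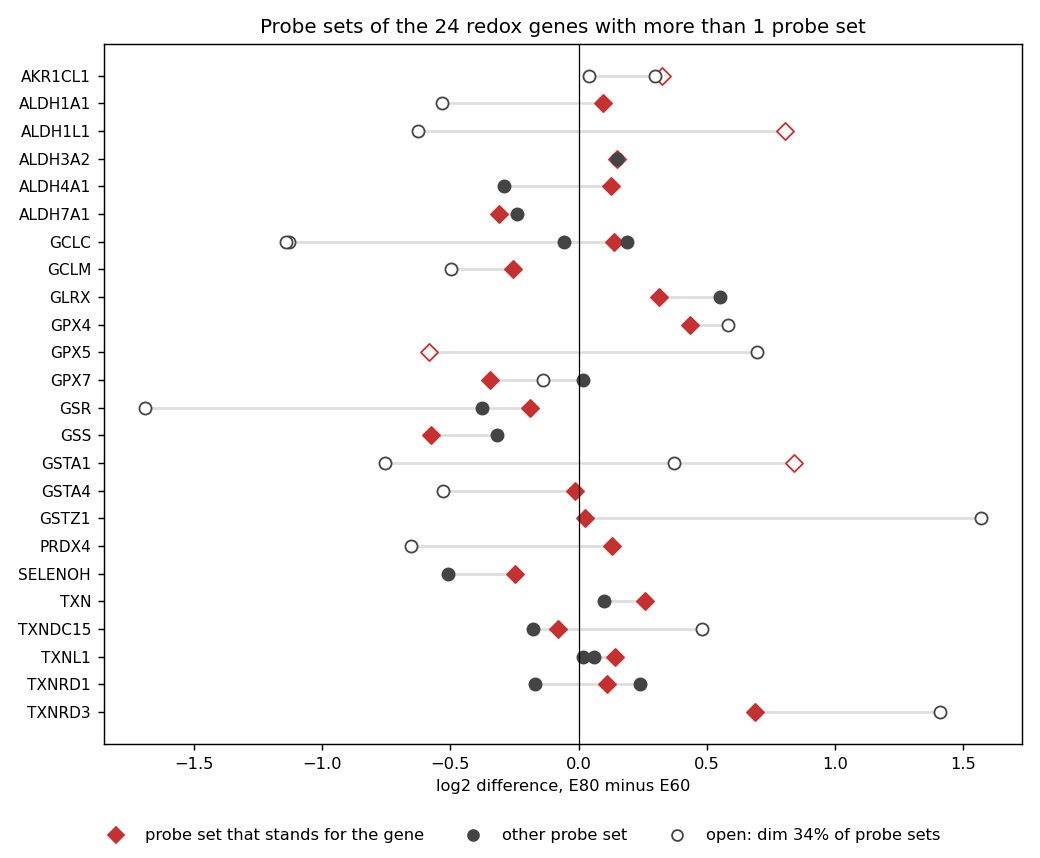
Log2 difference of E80 minus E60 (horizontal axis) of every probe set of the 24 genes with more than 1 probe set. Red diamonds stand for the gene, dark circles are the other probe sets, and open symbols belong to the 34% of probe sets with the lowest mean log2 signal. In 10 genes, among them GCLC, ALDH1L1 and GSTA1, the probe sets lie on both sides of 0.

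Of 136 further genes around these enzymes, in 7 lists, 72 were measured, and of these none rose and LRP8 fell, beside 1.49% and 1.05% of the 6765 genes. LRP8, a receptor of reelin that also takes up SELENOP, had signals of 797, 782 and 671 at E60 and 536, 459 and 425 at E80. All E80 arrays lay below E60, and the log2 difference was -0.67 (standard error 0.12, adjusted p = 0.0361). Its list, on selenium and the insertion of selenocysteine, had 8 of 13 genes measured, and the other 7 did not pass. Of the antioxidant regulators 3 of 16 were measured and none passed, with the smallest p for PARK7, a sensor of oxidative stress. PARK7 had signals of 1084, 1161 and 1301 at E60 and 1358, 1458 and 1448 at E80, with no overlap and a log2 difference of 0.27 (standard error 0.09, adjusted p = 0.179). NRF2 itself (NFE2L2) and KEAP1 were not analysed here. Of the NADPH supply 12 of 16 genes were measured, and the smallest p was that of the malic enzyme ME1, with a log2 difference of 0.39 (standard error 0.18, adjusted p = 0.291). In the list of glutathione breakdown and export (14 of 25 measured) it was that of the exporter ABCC2, which was dim, at 1.28 (standard error 0.39, adjusted p = 0.134). In that of protein repair and disulfide formation (10 of 16) it was that of SUMF1, also dim, at -0.74 (standard error 0.30, adjusted p = 0.25). The name of a list need not be the role of each gene in it. BLVRA, which turns biliverdin from the haem oxygenases into bilirubin, led the list of iron, haem and metals (7 of 14) with signals of 331, 416 and 402 at E60 and 491, 522 and 445 at E80, apart between the days, and a log2 difference of 0.35 (standard error 0.12, adjusted p = 0.173). TST, the sulfur transferase rhodanese, led the list of other detoxification (19 of 37) with a log2 difference of 0.96 (standard error 0.31, adjusted p = 0.153).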

How the data were processed

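The values that the authors deposited are intensity signals from MAS5, not on a log scale, with 1 value for each probe set on each array. A mean taken without the lowest and highest 2% of signals came to 150.0 on all arrays. Which version of MAS5 was run, and with what filter, no source used here states. Of 24123 probe sets, 124 controls were left out. The signals were put on the log2 scale without a pseudocount or further normalization. E80 was compared with E60 over all 23999 probe sets by a linear model in limma 3.58.1 under R 4.3.3, whose variances were moderated along a trend in intensity and which had no covariates, with Benjamini-Hochberg adjustment over all of them and a threshold of 0.05. All adjusted p and 95% intervals in the text are from this fit, and the intervals are not adjusted. Dim probe sets are the 34% with the lowest mean log2 signal (a signal of at most 25.0).

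Genes were named through the annotation of the platform, and all 78 symbols were the same in RefSeq by gene number. A probe set that carries TXNL4B for a pair of gene numbers was left out. The array was made from expressed sequences, and no genome coordinates or sequences are given. The genes and lists were chosen with earlier results of these data known. Named are the genes that passed, in each role the 3 with the smallest p and the brightest, in the further lists the genes that passed or the 1 with the smallest p, and, chosen after their values were seen, the others described. Alternatives were a fit without the intensity trend, an added 32 per signal, leaving out the dim probe sets, other rules for the probe set of a gene, leaving out each array, and scaling by quantiles or by medians. The fit was also run on simulated data whose noise followed an intensity trend by construction. That run cannot bear on the calls, since none of them held without the trend. Arrays have no counting depth, and 3 arrays per day limit the precision.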

Additional observations from a re-analysis of the deposited data

How the results depend on the processing

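Of the 78 genes, 5 rose, and 4 to 6 rose with either other scaling (quantile, 4, or median, 6), with an added 32 per signal, without dim probe sets or with the other rules for the probe set of a gene. None rose without the intensity trend, where 11 were higher at an unadjusted p under 0.05 and no probe set of all passed. Leaving out 1 array gave 0 to 5 genes that rose (0 without replicate 1 or 2 of E60 or replicate 1 of E80, 1 without replicate 3 of E80, 2 without replicate 2 of E80). The number that fell was 0 in each setting but 1, with 1 gene (ALDH1L2) without replicate 2 of E80. The median difference of 0.13 was 0.25 after median centring, and 0.113 to 0.190 when an array was left out. Median centring raised the differences of all probe sets by the same amount. The 1 gene past 3-fold with no overlap became 0 with 32 added. None of the genes whose sign turned had passed. After quantile normalization AKR1A1 was at -0.038, GLRX3 at -0.028 and PRDX2 at -0.068. GSTA4 was at 0.10 after median centring, and GPX5 at 0.055 as the mean of its probe sets. Without single arrays AKR1A1 ranged from -0.051 to 0.12 and GSTA4 from -0.094 to 0.068. The cause of these shifts was not tested. No paired analysis was possible because the arrays of each day come from different embryos.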

Other observations

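Replicate 3 of E80 carries the high choroid plexus signals and also the highest astrocyte, oligodendrocyte and microglia sums. It had the highest signal of all arrays for several detoxification genes that did not pass. The part of any of these cell types was not tested. Microsomal epoxide hydrolase (EPHX1) read 96.7, 102 and 74.5 at E60 and 78.6, 91.8 and 346 at E80, the soluble EPHX2 235, 246 and 172 at E60 and 225, 232 and 325 at E80, and the paraoxonase PON2 455, 455 and 421 at E60 and 461, 448 and 636 at E80. On the same array GPX3, the secreted glutathione peroxidase, read 34.3, against 12.6 to 17.4 on the other arrays. Replicate 1 of E80 had the lowest signals of all arrays for SELENOP, TXNIP and ALDH1A1, with values given above.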
